A study of Mus musculus with 5 samples.

Results

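Anti-FLAG immunoprecipitates of 2 mouse embryonic stem cell lines were compared: RNA recovered from lysate of a line labelled FLAG:MKRN1 was set against RNA recovered with the same antibody from lysate of a line labelled FLAG:Ctrl. These are 2 of the 5 arrays of the series. All genes with a probe set of 1 gene symbol entered, 19937 in all, each by its brightest probe set. The filter on dim probe sets, a mean of at least 5.76 on the log2 scale over the 5 arrays, is the median of these means on the whole array, and 11502 genes passed it. The 2 inputs, RNA of the same lysates taken before immunoprecipitation, served to separate genes whose difference between the RIPs (RNA immunoprecipitations) went with a difference between the lysates from genes where it did not.

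Both lines derive from R1 cells, a male embryonic stem cell line of a 129X1 x 129S1 mouse background established from the inner cell mass of the blastocyst. Per the labels, one line carries a pCAGGS vector for FLAG-tagged MKRN1 (3xN-FLAG:MKRN1) and the other the same vector with the tag alone (3xN-FLAG). Expression is constitutive in both, both are resistant to G418, and the labels' protocols describe the lines as clones. A difference between the inputs is therefore one between 2 clones as well as one between 2 constructs, and the 2 cannot be told apart here. Both lines were grown in LIF and serum, first on mouse embryonic fibroblast feeders and then on gelatin, with no further treatment. The remaining array is an IgG RIP of the FLAG:MKRN1 lysate. Each group is 1 array, so no difference below has a replicate check, an error or a p-value.

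MKRN1 belongs to the makorin family, zinc finger proteins with a RING domain, which gives ubiquitin ligase activity, and CCCH fingers of a kind found in many RNA-binding proteins. In a RIP, an antibody against a tagged protein pulls down the protein with RNA held in the same complexes. Recovery also depends on how much of each RNA the lysate held and on what sticks to beads and antibody. A gene transcribed more strongly in one line can therefore differ between RIPs whether or not the protein binds its RNA.

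Mkrn1 itself did not separate the lines. Its level was 11.80 in the FLAG:Ctrl input and 11.71 in the FLAG:MKRN1 input, and 12.20 and 11.90 in the corresponding anti-FLAG RIPs. It has a single probe set, and no source used here tells if that detects RNA made from the construct. The arrays are therefore called MKRN1-labelled and Ctrl-labelled, and each direction rests on the label. All 10 stem cell markers lay above the level filter in both inputs, with Pou5f1 at 12.13 in the Ctrl-labelled and 12.04 in the MKRN1-labelled input and Sox2 at 11.44 and 11.58. Of 9 markers of feeder fibroblasts, 3 (Postn, Lum and Dcn) lay under the filter in both inputs, and 5 above it in both. The highest was Thy1, at 9.88 in the Ctrl-labelled and 8.89 in the MKRN1-labelled input, and Col1a1 was at 6.88 and 6.78. Of 8 trophectoderm markers, 3 (Cdx2, Elf5 and Gata3) lay under the filter in both, whereas Krt8 was at 8.86 and 8.43, Krt18 at 8.16 and 8.13 and Tfap2c at 7.46 and 7.97. The MKRN1-labelled anti-FLAG RIP stood apart from the rest: Pearson's r across probe sets was 0.959 to 0.967 between it and the other arrays and 0.982 to 0.992 among those. Counts are therefore also given with the IgG RIP of the same lysate in its place.

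Between the anti-FLAG RIPs, 186 genes (1.62% of those kept) were at least 2-fold higher in the MKRN1-labelled RIP and 818 (7.11%) at least 2-fold lower, 8.73% in all. Between the inputs, 101 genes (0.878%) were higher and 91 (0.791%) lower in the MKRN1-labelled one. Of these 192 genes, 45 passed 2-fold in the same direction between the RIPs and 7 in the opposite direction. Higher genes made up 18.5% of the RIP calls on the deposited values. With arrays centred on the median over all probe sets the share was 7.49%, and the median RIP difference went from -0.03 to -0.23. The share was 36.6% with arrays centred on the genes kept, 32.3% after quantile normalization and 37.8% with the trend along signal level removed. The surplus of lower over higher genes was thus present at each of these scalings, while its size was not fixed.

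A RIP difference of at least 2-fold was taken to go with the input when the input difference had the same sign and at least 0.5 of its size on the log2 scale. It was taken to lie beyond the input when that did not hold and the RIP difference less the input difference was still at least 2-fold in the same direction. By this rule 32 higher genes (0.278%) and 57 lower genes (0.496%) went with the input, together 8.86% of the genes called between the RIPs. Beyond the input lay 128 higher genes (1.11%) and 604 lower genes (5.25%), and 26 higher and 157 lower genes were in between. The share that went with the input was 17.2% of the higher and 6.97% of the lower genes. With the IgG RIP in place of the MKRN1-labelled anti-FLAG RIP, 32 genes were higher and 20 lower than in the Ctrl-labelled RIP, of which 18 and 14 went with the input and 9 and 3 lay beyond it. Both sets of counts use the Ctrl-labelled RIP and are not independent.

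Across the 11502 genes, the RIP difference and the input difference, which have no array in common, had a Pearson's r of 0.158 and a Spearman's rho of 0.0821. Without AF067061, BC147527, Tcstv3, Pramel19 and Eif4a3l1, left out after their values were seen, r was 0.127. With the IgG RIP in place, r was 0.404 and rho 0.313. These correlations run across genes, which are not independent replicates. Some values were equal within 1e-06 on a pair of arrays, for 7.81% of genes between the RIPs and 14.1% between the inputs.

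**Figure D1:**
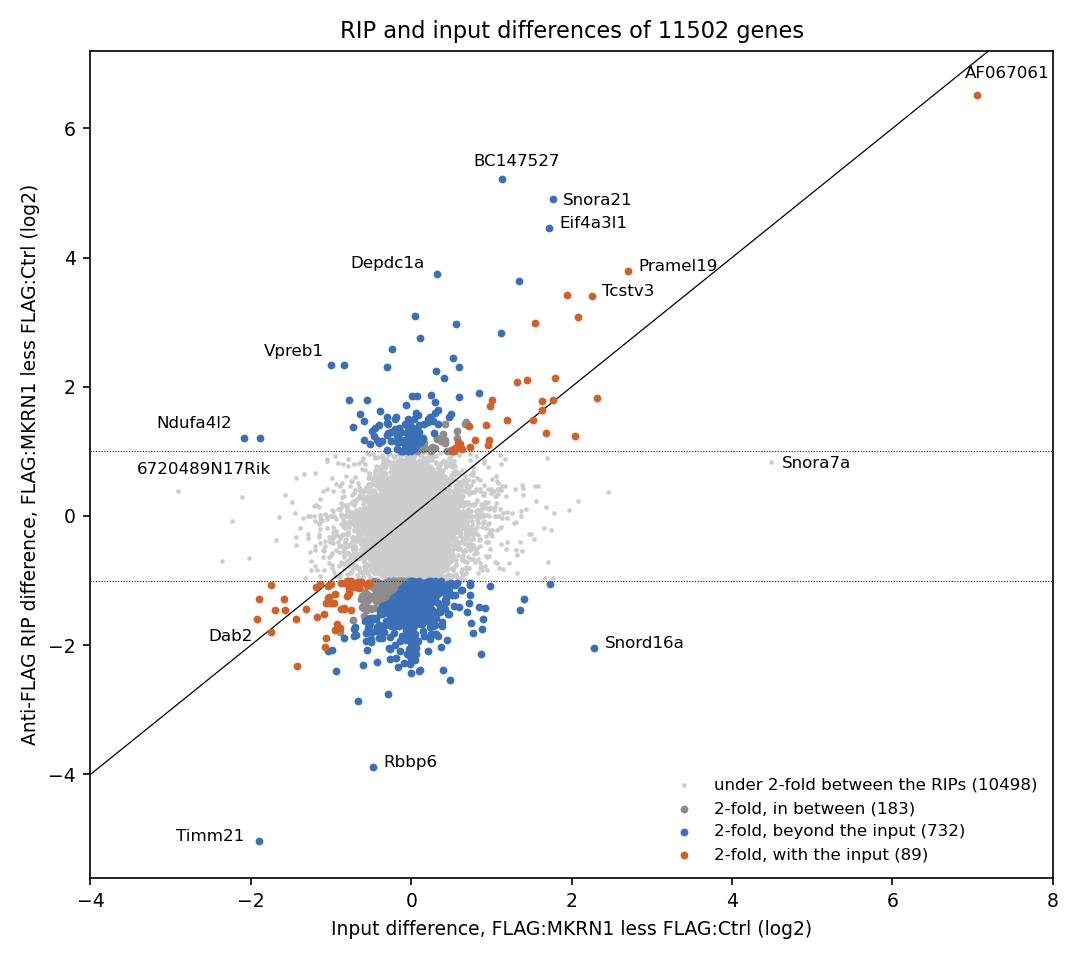
Each point is 1 of 11502 genes, placed by its input difference (horizontal) and its anti-FLAG RIP difference (vertical), both MKRN1-labelled less Ctrl-labelled on the log2 scale. Orange points are the 89 genes whose RIP difference went with the input, blue the 732 beyond it and dark grey the 183 in between; dotted lines mark 2-fold, the diagonal marks equal differences, and most blue points lie in the lower part near an input difference of 0.

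AF067061, Pramel19 and Tcstv3 led the higher genes that went with the input. Tcstv genes are transcripts of the 2-cell embryo that mark the 2-cell-like state, which a small part of embryonic stem cells enters at any time. Most genes on the list for this state were under the level filter and their values are not given. Whether the state differed between the lines was not tested. AF067061 had a level of 3.88 in the Ctrl-labelled input, 10.94 in the MKRN1-labelled input, 5.94 in the Ctrl-labelled RIP, 12.46 in the MKRN1-labelled RIP and 11.62 with IgG. Every array from the MKRN1-labelled lysate was high and both from the Ctrl-labelled lysate were low, with log2 differences of 7.06 between the inputs and 6.52 between the anti-FLAG RIPs. Tcstv3 went from 5.29 to 7.54 between the inputs and from 5.83 to 9.23 between the anti-FLAG RIPs, with 8.84 in the IgG RIP. Pramel19, of the PRAME-like family, had input levels of 4.32 and 7.03 and anti-FLAG RIP levels of 3.92 and 7.71, with 7.11 in the IgG RIP. For all 3 genes the IgG RIP of the MKRN1-labelled lysate lay within 1 log2 unit of its anti-FLAG RIP. The Ctrl-labelled levels of Pramel19 and the Ctrl-labelled input levels of AF067061 and Tcstv3 were below the level filter of 5.76, so these differences rest on values near the low end of the arrays.

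Of 13 genes on the list of 2-cell-like genes and Tcstv neighbours 4 were kept. All 4 were at least 2-fold higher between the RIPs, beside 1.62% of all kept genes. Each of the 4 was under the level filter in the Ctrl-labelled input. They passed it, on the mean over the 5 arrays, through the arrays of MKRN1-labelled lysate. Their direction was thus largely fixed by the filter, and the count is no separate support. Beside AF067061 and Tcstv3, the kept members were BC147527, described below, and Usp17lb, a deubiquitinase gene of the Usp17-like family. Usp17lb had a RIP difference of 1.46 and an input difference of 0.68. Both BC147527 and Usp17lb lay under the level filter on each Ctrl-labelled array. These genes have near-identical copies, and how far their probe sets share signal is not known here. AF067061, BC147527 and Tcstv3 each had a neighbouring kept gene that was also called higher, as did 15.6% of the 32 higher genes that went with the input against 3.17% of all kept genes.

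The start regions of AF067061 and of Eif4a3l1, a gene of the Eif4a3 helicase family whose values are given further on, are shown because both genes were high on all 3 arrays of the MKRN1-labelled lysate. The pair was chosen after the values were seen. The windows hold the 250 bases before each RefSeq start (GRCm38.p6), AF067061 at chr13:120262845-120263094 on the plus strand and Eif4a3l1 at chr6:136327289-136327538 on the plus strand. Capitals mark runs of at least 8 letters found in both windows, and runs that overlap are joined. The last capital stretch of Eif4a3l1 joins overlapping runs in this way and is not found whole in the AF067061 window.
AF067061: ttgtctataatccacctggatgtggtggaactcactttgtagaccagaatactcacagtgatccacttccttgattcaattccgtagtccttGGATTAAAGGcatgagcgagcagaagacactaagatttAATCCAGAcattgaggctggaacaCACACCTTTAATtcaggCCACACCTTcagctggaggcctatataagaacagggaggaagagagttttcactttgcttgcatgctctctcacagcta
Eif4a3l1: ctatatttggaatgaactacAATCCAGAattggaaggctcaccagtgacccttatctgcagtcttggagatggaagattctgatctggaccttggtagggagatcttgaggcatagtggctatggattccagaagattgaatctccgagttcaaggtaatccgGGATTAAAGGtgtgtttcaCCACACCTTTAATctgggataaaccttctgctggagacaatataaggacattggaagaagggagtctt
The longest run common to both, CACACCTTTAAT, occurs on either strand in 54 of 32851 RefSeq promoter windows of this length (0.164%). The letters TATAAG, which lie in both windows, occur in 2184 (6.65%). These matches describe the letters only.

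Small nucleolar RNAs were also prominent among the higher genes that went with the input. They guide the chemical modification of ribosomal RNA, box C/D members (Snord) methylation of the ribose and box H/ACA members (Snora) pseudouridylation, while Cajal body members (Scarna) act on spliceosomal RNA. Snora75 had input levels of 7.29 (Ctrl-labelled) and 9.38 (MKRN1-labelled), anti-FLAG RIP levels of 7.30 and 10.39 and an IgG RIP level of 7.81. Snora20 had 5.97 and 7.91 in the inputs, 6.24 and 9.66 in the anti-FLAG RIPs and 6.21 in the IgG RIP. Unlike AF067061, Tcstv3 and Pramel19, both were low in the IgG RIP of the MKRN1-labelled lysate although the input of that lysate was high. Snord49b differed by 1.64 between the inputs and 1.63 between the RIPs, Snora33 by 1.79 and 2.14, and Snord35a by 1.54 and 2.98.

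Other higher genes that went with the input were more varied. 1700019A02Rik differed by 2.31 between the inputs and 1.82 between the RIPs, Fam183b by 1.77 and 1.80, and the noncoding RNA Zbtb11os1 by 1.63 and 1.78. Gpx2, a glutathione peroxidase, had input levels of 7.15 and 8.66 and anti-FLAG RIP levels of 6.57 and 8.05, with 7.01 in the IgG RIP. Cd24a, a surface glycoprotein, had 9.99 and 11.19 in the inputs and 9.42 and 10.91 in the anti-FLAG RIPs. Ddit4, a stress-induced inhibitor of mTORC1 signalling, differed by 0.95 and 1.09. The snoRNA host gene Snhg17 differed by 0.98 and 1.70. On its second probe set it differed by 0.27 and 1.65, which by the rule lies beyond the input.

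**Figure D2:**
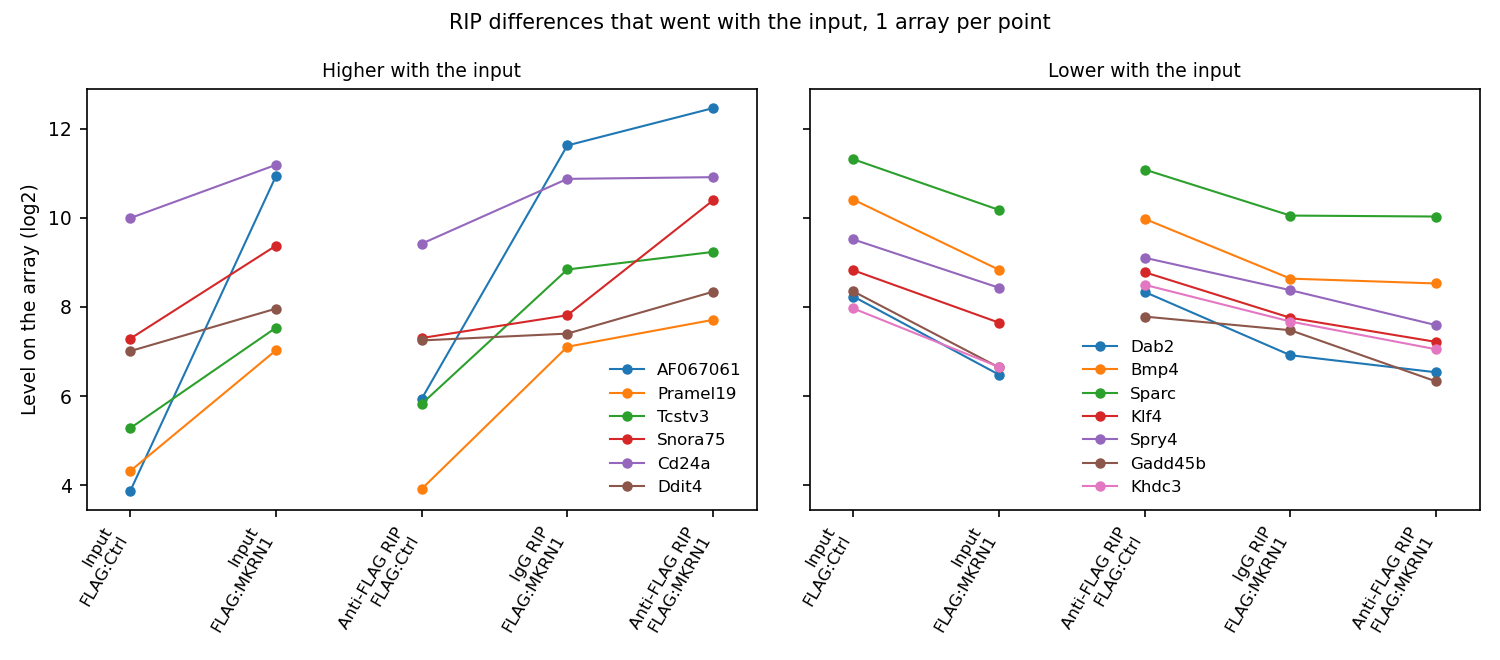
Levels (log2) of genes whose RIP difference went with the input, on each of the 5 arrays, 1 point per array, higher genes on the left and lower on the right; lines only link the arrays of 1 gene. AF067061 is at 3.88 and 5.94 on the Ctrl-labelled input and RIP and between 10.94 and 12.46 on the arrays of MKRN1-labelled lysate, and Dab2 runs the other way.

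Among lower genes that went with the input were some genes of primitive endoderm and the pluripotency factors Klf4 and Nr0b1. Primitive endoderm is the extraembryonic lineage that lines the blastocyst cavity, and single cells in serum culture can drift towards it. Dab2, an endocytic adaptor of that lineage, had a level of 8.23 in the Ctrl-labelled and 6.48 in the MKRN1-labelled input, 8.34 and 6.54 in the anti-FLAG RIPs and 6.92 in the IgG RIP. Sparc, a secreted matrix protein, had 11.31 and 10.18 in the inputs, 11.08 and 10.03 in the anti-FLAG RIPs and 10.05 in the IgG RIP. Both genes were lower on all 3 arrays of the MKRN1-labelled lysate than on both of the Ctrl-labelled lysate. Srgn, a proteoglycan core protein, differed by -0.96 between the inputs and -1.21 between the RIPs.

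Of the 14 kept genes on the primitive endoderm list 5 (35.7%) were at least 2-fold lower and none higher, beside 7.11% lower over all kept genes. In sign, 7 RIP differences were below 0 and 4 above. The median RIP difference of the list was -0.36 and the median input difference -0.19, against -0.03 and 0.00 over all kept genes. Dab2, Sparc and Srgn went with the input, the laminin gene Lama1 (RIP difference -1.24, input difference -0.61) was in between, and Lamc1 (-1.26 and -0.16) lay beyond it. Transcription factors that specify the lineage lay within 1 log2 unit of the level filter in both inputs, with Gata6 at 5.69 (Ctrl-labelled) and 5.66 (MKRN1-labelled), Sox17 at 5.03 and 4.81 and Gata4 at 6.28 and 6.32. Between the RIPs the markers Gata4, Sox7 and Col4a1 differed by 0.00 and Foxa2 by 0.28, while Gata6 differed by -0.42 and Sox17 by -0.09. In these bulk lysates, fewer cells of a type and less RNA per cell cannot be told apart.

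Klf4, a naive pluripotency factor downstream of LIF, had input levels of 8.82 and 7.65, anti-FLAG RIP levels of 8.78 and 7.22 and an IgG RIP level of 7.76. Bmp4, a growth factor of the TGF-beta superfamily, had 10.41 and 8.83 in the inputs, 9.98 and 8.53 in the anti-FLAG RIPs and 8.64 in the IgG RIP. For both, all 3 arrays of MKRN1-labelled lysate lay below both of the other lysate. Of 26 kept pluripotency factors 4 (15.4%) were at least 2-fold lower, beside 7.11% of all kept genes. Klf4 and Nr0b1 (2.01-fold lower between the RIPs and 1.73-fold between the inputs) went with the input. Tbx3 (-1.74 and -0.53) lay beyond it and Utf1 (-1.17 and -0.23) was in between. Pou5f1, Sox2 and Nanog, the core factors, had RIP differences of -0.12, -0.04 and -0.31 and were not called. Nor were the naive factors Esrrb (RIP difference -0.60, input difference 0.14), Tfcp2l1 (-0.77 and 0.13), Zfp42 (-0.34 and -0.12) and Klf5 (-0.66 and -0.38). Over the 26 factors 9 input differences were above 0 and 15 below, with a median of -0.05. Khdc3, an oocyte and early embryo factor, differed by -1.31 between the inputs and -1.45 between the RIPs, and Zfp57, which protects imprints, by -0.89 and -1.73.

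Further lower genes that went with the input included Gadd45b, a stress-response gene, at -1.70 between the inputs and -1.45 between the RIPs. Crabp2, which binds retinoic acid, differed by -1.44 and -1.60, Spry4, a feedback inhibitor of FGF signalling, by -1.08 and -1.51, and Gch1, the first enzyme of tetrahydrobiopterin synthesis, by -1.58 and -1.28. Nup62cl, related to the nucleoporin Nup62, differed by -1.93 and -1.60 and the pseudogene 2210409E12Rik by -1.42 and -2.32. Rian and Meg3, noncoding RNAs of the imprinted Dlk1-Dio3 cluster, differed by -1.89 and -1.29 and by -0.72 and -1.08. Rian had an input level of 9.24 (Ctrl-labelled) and 7.35 (MKRN1-labelled) and lower levels in each RIP, at 5.43 and 4.14 in the anti-FLAG RIPs and 6.43 in the IgG RIP.

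The class medians set these genes apart from those beyond the input on the IgG RIP as well. The IgG RIP less the Ctrl-labelled RIP had a median of 0.56 over the 32 higher genes that went with the input and -0.52 over the 57 lower ones, against 0.11 and -0.01 over the 128 higher and 604 lower genes beyond it. At least 2-fold in the same direction on that comparison were 6 of 32 and 11 of 57 genes that went with the input, and 6 of 128 and 2 of 604 beyond it. The MKRN1-labelled anti-FLAG RIP less the IgG RIP had medians of 0.93 and -0.77 for genes that went with the input and 1.21 and -1.31 for those beyond it. Each of these comparisons uses an array of the RIP difference and is given beside it, not as separate evidence.

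Beyond the input, the highest gene was BC147527, a neighbour of the Tcstv genes. Its level was 4.93 in the Ctrl-labelled and 6.06 in the MKRN1-labelled input, 4.35 and 9.57 in the anti-FLAG RIPs and 7.14 in the IgG RIP. The MKRN1-labelled anti-FLAG RIP was thus highest, the IgG RIP of the same lysate next and the Ctrl-labelled RIP lowest, 37.2-fold below the MKRN1-labelled RIP on a value under the level filter. Eif4a3l1 had 5.01 and 6.74 in the inputs, 4.06 and 8.53 in the anti-FLAG RIPs and 8.01 in the IgG RIP. Its class was beyond the input, but like AF067061 it was high on every array of the MKRN1-labelled lysate, and the anti-FLAG RIP exceeded the IgG RIP by only 0.52.

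Snora21, an H/ACA small nucleolar RNA, had input levels of 4.91 and 6.68, anti-FLAG RIP levels of 6.19 and 11.09 and an IgG RIP level of 6.52. Only the MKRN1-labelled anti-FLAG RIP was high, 30.0-fold above the Ctrl-labelled RIP. Snord38a, a C/D member, had 7.92 and 8.02 in the inputs, 8.13 and 10.89 in the anti-FLAG RIPs and 8.39 in the IgG RIP, the same pattern with nearly equal inputs. Rnu3a, a gene for U3 RNA, which acts in the early cleavage of pre-ribosomal RNA, had 5.03 and 6.38 in the inputs, 6.00 and 9.63 in the anti-FLAG RIPs and 6.65 in the IgG RIP. Snora44 differed by 2.98 between the RIPs and 0.56 between the inputs, and Snora30 by 2.24 and 0.31.

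Over the 39 kept small nucleolar and Cajal body RNAs of 54 on the array, 21 (53.8%) were at least 2-fold higher between the RIPs and 3 (7.69%) lower. Over all kept genes 1.62% were higher and 7.11% lower, so the share of lower members was near that of all genes. Of these, 7 higher genes went with the input, 12 higher and 3 lower lay beyond it and 2 higher were in between. The median RIP difference was 1.20 and the median input difference 0.56. Split by series, a split made after the values were seen, 12 of 18 H/ACA members were higher and 0 lower, with a median RIP difference of 1.56 and a median input difference of 0.48. Of 19 C/D members, 7 were higher and 3 lower, with a median RIP difference of -0.23 and a median input difference of 0.67. The input medians of both series thus lay above 0, while the RIP medians lay on opposite sides of it. Over the deposited values and the 4 other scalings (both centrings, quantile normalization and the trend removed), the H/ACA median ran from 1.35 to 1.72 and the C/D median from -0.44 to -0.06. The lower members were Snord33 (RIP difference -2.14, input difference 0.87), Snord16a (-2.04 and 2.28) and Snord73b (-1.45 and 1.36).

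Proteins of the small nucleolar particles are encoded by mRNAs that did not share this direction. Of 30 kept genes for box snoRNP and nucleolar proteins 0 were higher and 4 (13.3%) lower, beside 1.62% and 7.11% of all kept genes. Their median RIP difference was -0.53, but -0.21 with the trend along level removed. Dkc1, the pseudouridine synthase of H/ACA particles, differed by -1.04 between the RIPs and -0.19 between the inputs. Shq1, an assembly factor of the same particles, differed by -1.65 and 0.75, and the RNA polymerase I subunits Polr1b and Polr1a by -2.20 and -1.18, each with an input difference of 0.00. Of 6 snoRNA host genes, which carry snoRNAs in their introns, Snhg15 (RIP difference 1.90, input difference 0.85) and Snhg17 were at least 2-fold higher. Gas5 (0.17 and 0.05) and Snhg5 (-0.31 and 0.00) were not. The second probe set of Gas5 differed by -0.82 and 0.71, the RIP difference thus of opposite sign. Among other structured small RNAs, Rn7sk, which holds P-TEFb inactive, differed by -0.55 between the RIPs, and the RNase MRP RNA Rmrp by -0.16.

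MicroRNA genes formed another group of small RNAs above the Ctrl-labelled RIP. MicroRNAs are cut from hairpin precursors and, loaded into Argonaute, pair with target mRNAs mainly through bases 2 to 8, the seed. Of 300 microRNA genes on the array 63 were kept, among them the host genes Mir17hg and Mir99ahg, which fall under the list by symbol. Between the RIPs 8 (12.7%) were at least 2-fold higher, all beyond the input, and 1 (1.59%) lower, beside 1.62% and 7.11% of all kept genes. The list had a median RIP difference of 0.61, with 59 of 63 genes above 0, and a median input difference of 0.00. Over the scalings the median ran from 0.40 to 0.77 and the number of higher genes from 2 to 15. Of the 63 genes, 24 were in the dimmest of 5 equal groups of kept genes by level, whose median RIP difference over all genes was 0.13, and the others in brighter ones with medians of 0.00 or below. With the trend along level removed, the median of the list was 0.61. Which form of the RNA the probe sets detect, primary transcript or hairpin, is not given in the sources used here.

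RefSeq mature sequences (GRCm38.p6) were at hand for 5 of these 8 genes and are shown because they name the products of the genes that differed; Mir30d, Mir328 and Mir3107 are named only. Capitals mark the seed. The 10 sequences have 10 distinct seeds, so no seed was held in common.
mmu-miR-6516-5p: uUUGCAGUaacagguguggaca
mmu-miR-6516-3p: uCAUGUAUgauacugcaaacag
mmu-miR-483-5p: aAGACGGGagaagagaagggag
mmu-miR-483-3p: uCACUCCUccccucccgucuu
mmu-miR-335-5p: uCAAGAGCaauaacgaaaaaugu
mmu-miR-335-3p: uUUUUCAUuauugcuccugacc
mmu-miR-188-5p: cAUCCCUUgcaugguggaggg
mmu-miR-188-3p: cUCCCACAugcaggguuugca
mmu-miR-679-5p: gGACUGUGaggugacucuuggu
mmu-miR-679-3p: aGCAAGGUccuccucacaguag
The arms of Mir6516 lie at chr11:117077370-117077391 and chr11:117077412-117077433 on the plus strand. Its probe set had input levels of 8.36 (Ctrl-labelled) and 9.48 (MKRN1-labelled), anti-FLAG RIP levels of 7.95 and 10.78 and an IgG RIP level of 8.68. The MKRN1-labelled anti-FLAG RIP was the highest of the 5 arrays for this gene.

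The other higher microRNA genes differed by 1.00 to 1.23 between the RIPs. Mir483, which lies in an intron of Igf2, had 7.39 and 7.38 in the inputs, 7.08 and 8.28 in the anti-FLAG RIPs and 7.26 in the IgG RIP. Mir335, which lies in an intron of the imprinted gene Mest, had 5.98 in both inputs, 5.89 and 7.06 in the anti-FLAG RIPs and 5.63 in the IgG RIP. Its host differed otherwise: Mest had a difference of 1.30 between the inputs and 0.41 between the RIPs. Mir30d differed by 1.23, Mir328 and Mir188 by 1.16 each, Mir679 by 1.08 and Mir3107 by 1.00. Mir363, of an X-linked cluster active in stem cells, was the lower one, with 8.21 and 7.93 in the inputs, 6.87 and 5.60 in the anti-FLAG RIPs and 7.99 in the IgG RIP.

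Protein-coding genes among the highest beyond the input had no theme fixed by a list. Depdc1a had levels of 6.48 and 6.80 in the inputs, 6.50 and 10.25 in the anti-FLAG RIPs and 7.50 in the IgG RIP, but its second probe set had a RIP difference of -0.02. Zc3h3, a CCCH zinc finger gene, differed by 2.34 between the RIPs and -0.83 between the inputs, and -0.01 between the RIPs on its second probe set. Tmsb15a, a beta-thymosin that binds actin monomers, had 4.99 and 5.51 in the inputs, 6.67 and 9.12 in the anti-FLAG RIPs and 6.67 in the IgG RIP. The beta-thymosins Tmsb4x and Tmsb10 differed by -0.58 and 0.12 and were not called. Defb25, a beta-defensin, differed by 3.09 between the RIPs and 0.04 between the inputs, Wfdc15a by 2.30 and -0.30, and S100a2, a calcium-binding protein, by 1.86 and 0.01. Of the 128 higher genes beyond the input, 14 had a second kept probe set, which went in the same direction for 8 and was at least 2-fold for 4.

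**Figure D3:**
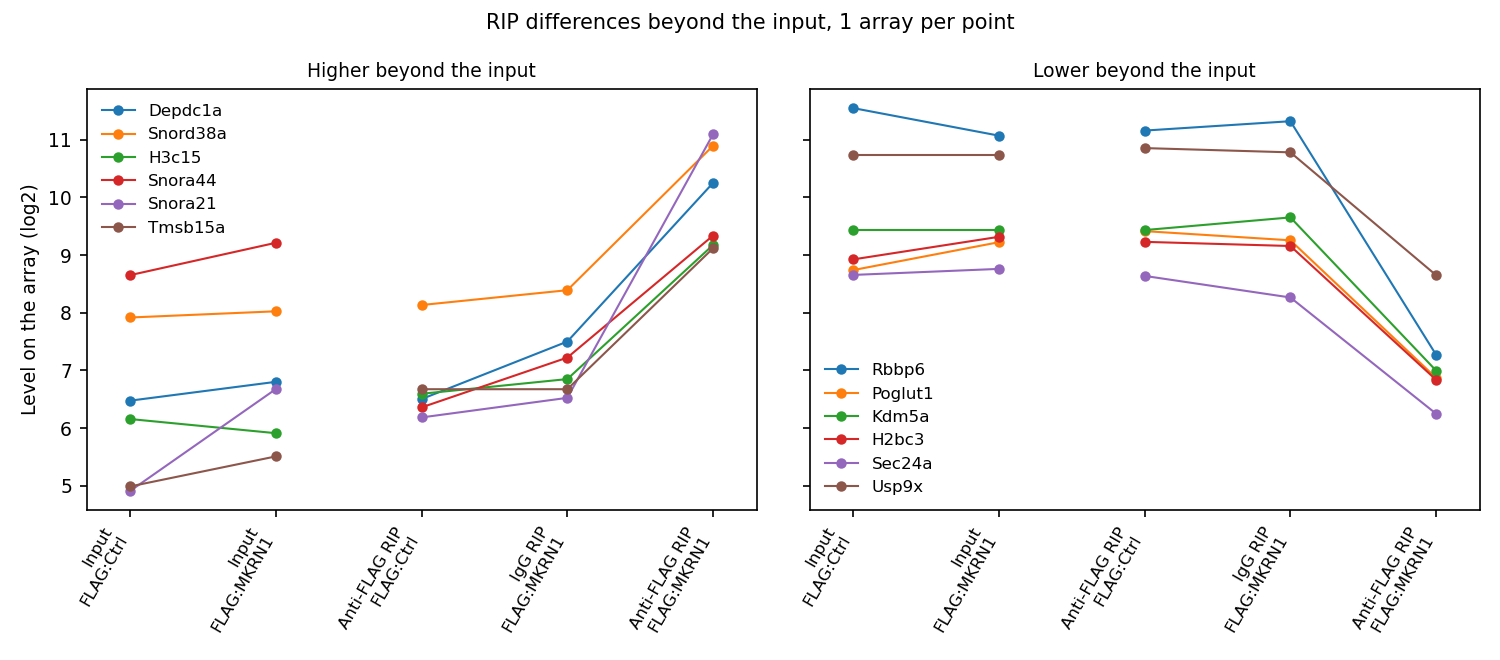
Levels (log2) of genes whose RIP difference lay beyond the input, on each of the 5 arrays, 1 point per array, higher genes on the left and lower on the right; lines only link the arrays of 1 gene. Snora21 and Snord38a are high on the MKRN1-labelled anti-FLAG RIP alone (11.09 and 10.89), while Rbbp6 and Kdm5a are low on it (7.27 and 7.00).

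Lower genes beyond the input were the largest class by number. Rbbp6, an RB-binding ubiquitin ligase, had levels of 11.55 and 11.07 in the inputs, 11.16 and 7.27 in the anti-FLAG RIPs and 11.32 in the IgG RIP. Its second probe set differed by -0.68 between the RIPs. Timm21, a subunit of the mitochondrial import machinery, had 9.14 and 7.25 in the inputs, 10.34 and 5.31 in the anti-FLAG RIPs and 8.99 in the IgG RIP, so both the input and the RIPs of the MKRN1-labelled lysate were lower. Kdm5a, a histone H3K4 demethylase, had 9.43 in both inputs, 9.43 and 7.00 in the anti-FLAG RIPs and 9.65 in the IgG RIP. Pbk, a mitotic kinase, had 8.59 and 8.31, then 9.09 and 6.34, and 8.83 in the same order.

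The MKRN1-labelled anti-FLAG RIP was the lowest of the 5 arrays for each of these 4 genes. The same array was lowest for Poglut1, an O-glucosyltransferase of Notch, with a RIP difference of -2.54 and an input difference of 0.48, and for Sec24a, a COPII coat subunit, with -2.39 and 0.10. Gen1, a resolvase of Holliday junctions, differed by -2.29 and -0.02, Pbrm1, a PBAF remodelling subunit, by -2.24 and 0.04, and Usp9x, a deubiquitinase, by -2.20 and 0.00. Tars, a threonyl-tRNA synthetase, differed by -2.27 and -0.08 and the phosphatase Dusp19 by -2.87 and -0.66. Of the 604 genes, 44 had a second kept probe set, which went the same way for 34 and was at least 2-fold for 17. In all, the MKRN1-labelled RIP value of 31 lower genes and the Ctrl-labelled RIP value of 17 higher genes lay under the level filter.

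Replication-dependent histone genes, whose mRNAs end in a stem-loop rather than a poly(A) tail, had the lowest median RIP difference of the 48 lists. Of 24 kept, 11 (45.8%) were at least 2-fold lower and 2 (8.33%) higher, beside 7.11% and 1.62% of all kept genes. The median RIP difference was -0.87 and the median input difference 0.28. Over the scalings the median ran from -1.08 to -0.63 and the number lower from 9 to 13. All 11 lay beyond the input. H2bc3 had levels of 8.92 and 9.32 in the inputs, 9.23 and 6.84 in the anti-FLAG RIPs and 9.16 in the IgG RIP. H4c4 had 13.03 and 13.19, then 12.58 and 10.71, and 12.64 in the same order, and H2bc14 differed by -2.28 between the RIPs. H3c15 went the other way, with 6.16 and 5.91 in the inputs, 6.60 and 9.17 in the anti-FLAG RIPs and 6.85 in the IgG RIP. Histone genes have near-identical copies, so values of single members are uncertain.

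Genes of DNA repair, chromatin and the cell cycle were lower in part, at shares to be read against the 7.11% of all kept genes that were lower. Of 35 kept repair and checkpoint genes 10 (28.6%) were at least 2-fold lower and 0 higher (median RIP difference -0.79, input 0.04), 9 of them beyond the input. They included Brca2 (RIP difference -1.78, input difference 0.14) and Brca1 (-1.64 and -0.10), of homologous recombination, and the checkpoint kinase gene Atm (-1.41 and -0.06). Of 41 chromatin regulators 9 (22.0%) were lower and 0 higher (median -0.64), among them the histone demethylase Kdm6a (-2.02 and 0.37), the acetyltransferase Ep300 (-1.84 and 0.00) and the remodeller Chd1 (-1.76 and 0.00). Of 43 cell cycle genes 10 (23.3%) were lower (median -0.59), such as Bub1b of the spindle checkpoint (-1.59 and 0.13) and Cdk6 (-2.08 and -0.55). The 1 higher gene of that list, the CDK inhibitor Cdkn1b, differed by 1.76 and 0.29, and by 0.01 between the RIPs on its second probe set. Of 44 replication genes 6 (13.6%) were lower (median -0.29, but 0.02 with the trend along level removed), among them Orc1 (-1.54 and -0.20) and Mcm4 (-1.16 and 0.10). Over the scalings the medians of the repair, chromatin and cell cycle lists stayed below 0, at most -0.46, -0.29 and -0.30, while the number of lower genes ran from 7 to 17, from 6 to 13 and from 3 to 16.

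Other lists held few called genes beside a shifted median, again with 7.11% of all kept genes lower and a median of -0.03 over them. Of 39 proteasome subunits 6 (15.4%) were lower and 0 higher, with a median RIP difference of -0.52 and 37 genes below 0; Psmb2 had 11.55 and 11.49 in the inputs, 11.81 and 10.53 in the anti-FLAG RIPs and 11.89 in the IgG RIP. All 8 kept subunits of the chaperonin TRiC were below 0, from -0.13 to -1.03, with Cct3 lowest. The proteasome median ran from -0.72 to -0.26 over the scalings, with 1 to 10 genes lower, and the TRiC median from -0.76 to -0.34. Of 10 enzymes of DNA methylation 1 was lower, a share near that of all genes: Tet2 at -1.14, with a median of -0.71, while Dnmt1, Dnmt3a and Dnmt3b differed by -0.88, -0.86 and -0.83. Of 28 genes of endoplasmic reticulum stress and folding 4 (14.3%) were lower, including the chaperone Hspa5 (-1.40 and -0.36) and the stress sensor Atf6 (-1.90 and -0.51).

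Cytosolic ribosomal proteins did not move as a group: of 60 genes 0 passed 2-fold in either direction, from Rpl10 at -0.78 to Rpl21 at 0.74, with a median of -0.02 that ran from -0.22 to 0.15 over the scalings and so changed sign. Of 77 mitochondrial ribosomal proteins 1 was higher (Mrpl36, 1.10) and 1 lower (Mrpl13, -1.32). Among 59 translation factors 1 was higher and 7 (11.9%) lower. The higher one is Eif4a3l1, placed there by its symbol, and the lower ones include the eIF3 subunits Eif3m (-1.37 and -0.17) and Eif3l (-1.25 and -0.05). On its second probe set Eif3m differed by -0.67 between the RIPs. Of 48 splicing factors 3 (6.25%) were lower, Sf3b1 (-1.49), U2af1 (-1.32, but -0.19 on its second probe set) and Sf3b6 (-1.16). This share and the 6.82% of mRNA-binding proteins that were lower did not exceed the 7.11% over all kept genes. Among 44 mRNA-binding proteins Cirbp, a cold-inducible protein, was higher (1.17 and -0.59), and Pum2 (-1.10), G3bp2 (-1.28) and Qk (-1.24) were lower; with the median over its 3 probe sets Qk differed by 0.58.

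**Figure D4:**
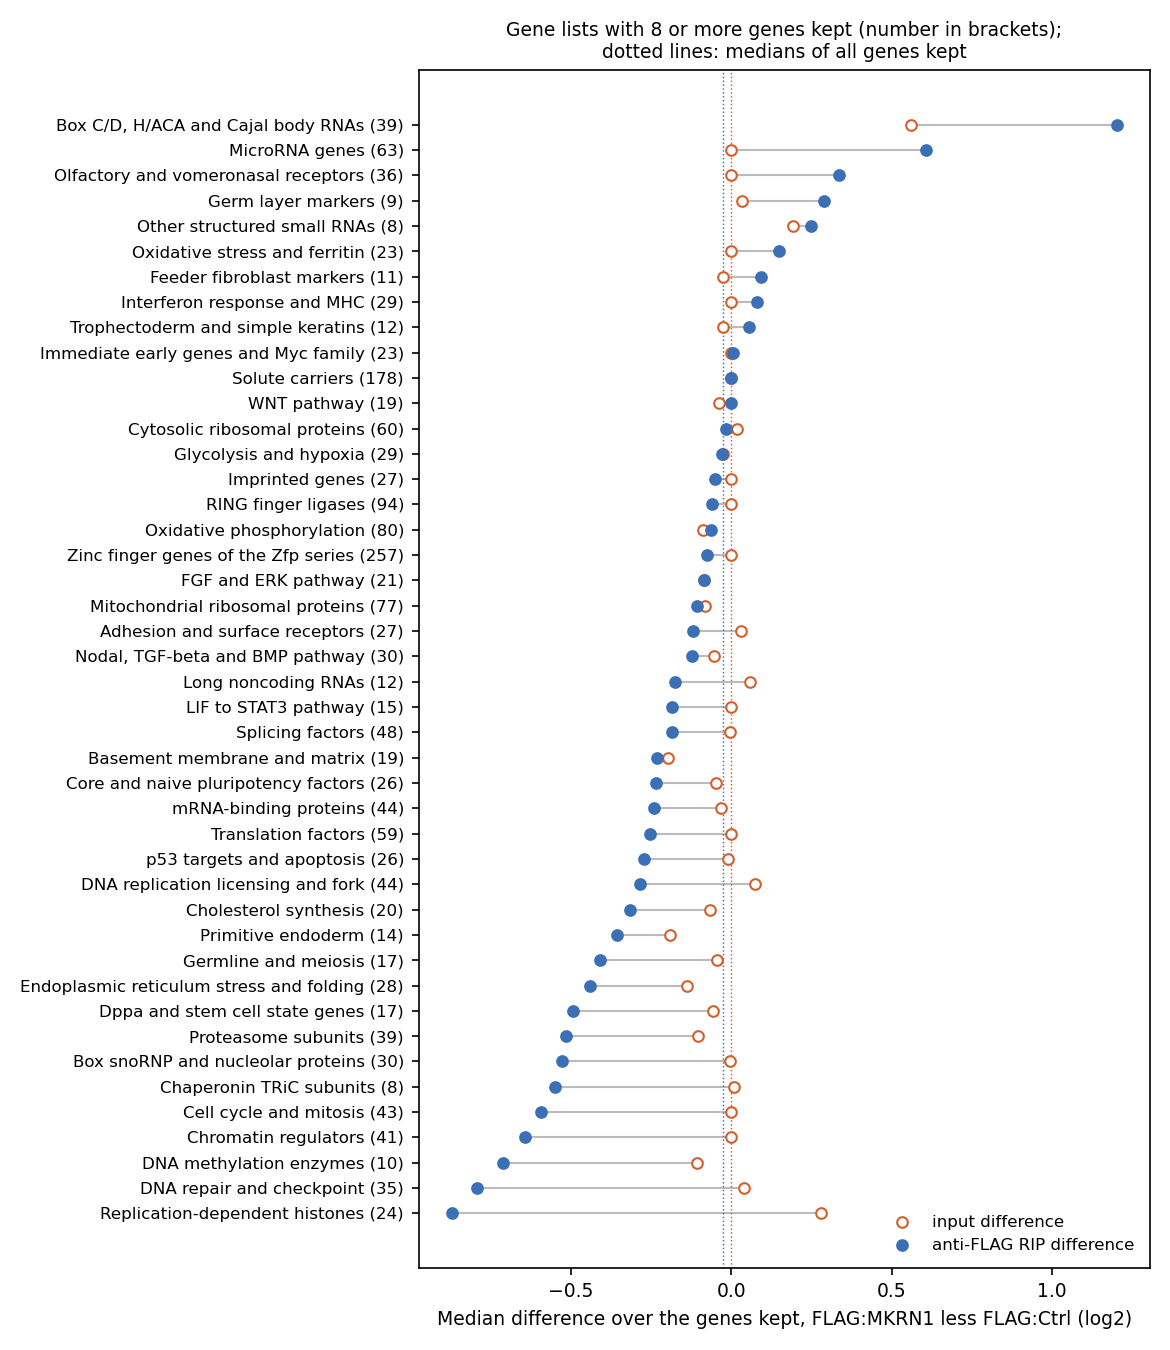
Median RIP difference (filled blue) and median input difference (open orange) of each gene list with 8 or more genes kept (log2, MKRN1-labelled less Ctrl-labelled), with dotted lines at the medians of all kept genes. The small nucleolar RNAs stand at 1.20 and 0.56 and the microRNA genes at 0.61 and 0.00, while the histone genes stand at -0.87 and 0.28 and the repair genes at -0.79 and 0.04.

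The signalling pathways had list medians near that of all genes, from -0.18 to 0.01. Few genes were called in each. The share lower was 20% for LIF to STAT3, 13.3% for Nodal, TGF-beta and BMP, and 9.52% for FGF and ERK. Over all kept genes it was 7.11%. Of 15 kept genes of the LIF to STAT3 pathway 3 were lower: Klf4, and both chains of the LIF receptor, Lifr (-1.43 and 0.05) and Il6st (-1.39 and 0.13). Lifr had levels of 9.06 and 9.11 in the inputs, 9.13 and 7.70 in the anti-FLAG RIPs and 8.92 in the IgG RIP. Of 30 genes of the Nodal, TGF-beta and BMP pathway 4 were lower: the ligand Bmp4 went with the input, while the receptors Bmpr1a (-2.13 and -0.05) and Bmpr2 (-1.31 and 0.04) and the transducer Smad2 (-1.59 and -0.26) lay beyond it. In the FGF and ERK pathway Spry4 and Spred1 (-1.07 and -0.17), both inhibitors, were lower among 21 genes, neither of them beyond the input. No WNT pathway gene of 19 and no immediate early or Myc family gene of 23 passed 2-fold between the RIPs. Myc had a difference of -1.25 between the inputs and -0.70 between the RIPs.

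**Figure D5:**
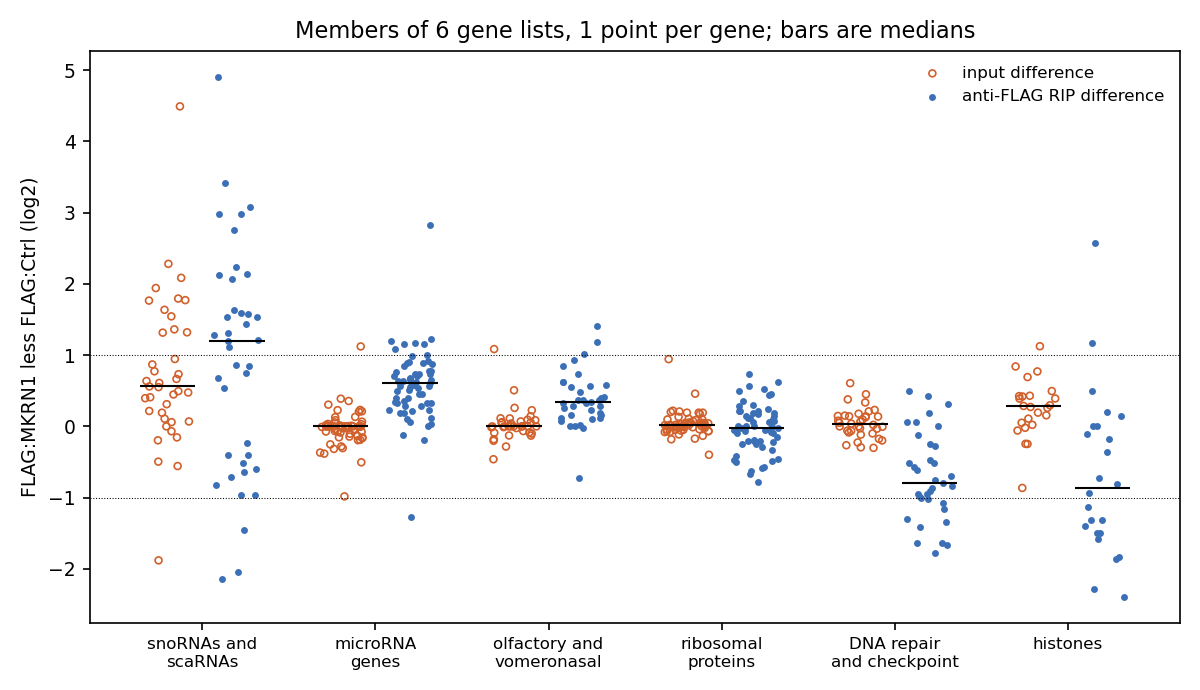
Input difference (open orange) and RIP difference (filled blue), both log2, of each kept member of 6 gene lists, 1 point per gene and comparison, with bars at the medians and dotted lines at 2-fold. In the RIP difference, histone genes run from -2.39 to 2.58 and small nucleolar RNAs from -2.14 to 4.91, while the 60 ribosomal protein genes stay between -0.78 and 0.74.

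Among imprinted genes 7 of 27 (25.9%) were lower and 0 higher, beside 7.11% lower over all kept genes. The list as a whole was not shifted: its median RIP difference was -0.05, with 11 genes above 0 and 14 below. Over the scalings that median ran from -0.26 to 0.11 and the number lower from 5 to 9. Peg10, a retrotransposon-derived gene, had 12.90 and 11.96 in the inputs, 12.60 and 10.19 in the anti-FLAG RIPs and 11.66 in the IgG RIP, a difference of -2.41 between the RIPs beyond one of -0.93 between the inputs. Igf2r (-1.23 and 0.00) and Sfmbt2 (-1.41 and 0.05) lay beyond the input. The nuclear noncoding RNA Malat1 had 11.70 and 11.93 in the inputs, 11.21 and 9.50 in the anti-FLAG RIPs and 10.93 in the IgG RIP. Of 27 adhesion and surface receptor genes 6 were lower, such as the integrin Itga6 (-2.21 and -0.27), and Cd24a was higher. Krt8, a simple epithelial keratin, was the 1 lower gene of 12 on the trophectoderm list (-2.26 and -0.42), a share near that of all genes. Of 36 kept olfactory and vomeronasal receptor genes of 1194 on the array, a class with little known use in stem cells, 3 (8.33%) were higher, beside 1.62% of all kept genes. The RIP difference was above 0 for 32 (median 0.34, but 0.21 with the trend along level removed). Over the scalings 1 to 5 were higher. The 3 higher genes, Olfr1347, Olfr328 and Olfr401, were in the dimmest of the 5 groups by level, whose median over all genes was 0.13.

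Input differences did not always appear between the RIPs. A difference of at least 2-fold between the inputs was less than 0.5 of that size, or of opposite sign, between the RIPs for 71 genes higher (0.617%) and 59 lower (0.513%) in the MKRN1-labelled input. Snora7a had 5.69 and 10.18 in the inputs, 8.56 and 9.40 in the anti-FLAG RIPs and 9.09 in the IgG RIP, so only the Ctrl-labelled input was low. The noncoding RNA 2410124H12Rik had 7.41 and 9.38 in the inputs and 7.75, 7.85 and 7.85 in the RIPs. Here the MKRN1-labelled input alone was high. Gm9958 differed by 2.45 between the inputs and 0.38 between the RIPs, and Tcim by 2.08 and 0.23.

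On the lower side, 6720489N17Rik had 8.92 and 6.02 in the inputs, 7.90 and 8.29 in the anti-FLAG RIPs and 8.33 in the IgG RIP. Tspan5, a tetraspanin, had 9.23 and 7.00 in the inputs, 8.56 and 8.48 in the anti-FLAG RIPs and 8.56 in the IgG RIP. For both, the MKRN1-labelled input was the lowest of the 5 arrays and all RIPs lay close together. Marchf11 differed by -2.36 between the inputs and -0.70 between the RIPs. Nynrin differed by -2.12 and 0.29 on its brightest probe set, with an input difference of 0.21 for the median over its 3 probe sets. An input difference that no RIP of the same lysate carries rests on 1 input array.

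The RIP difference moved with signal level, whereas the input difference did not. Across genes its Pearson's r with the mean level was -0.290, against -0.0083 for the input difference. Cut into 5 equal groups of genes by level, from the dimmest to the brightest, the median RIP difference was 0.13, 0.00, -0.12, -0.27 and -0.29. The dimmest group held 25 higher and 11 lower genes, and the brightest 22 higher and 264 lower. Genes that went with the input were spread otherwise, with 3, 5, 11, 7 and 6 higher and 2, 9, 17, 21 and 8 lower genes in the same order. Within these groups, r between the RIP and the input difference ran from 0.120 to 0.200. With the trend along level removed, the median RIP difference of the histone genes was -0.63 against -0.87 on the deposited values, that of the repair genes -0.46 against -0.79, and that of the microRNA genes 0.61 on both.

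By RNA class, 136 of 11073 protein-coding genes were higher and 804 lower, and 16 of 220 long noncoding RNAs were higher and 7 lower. Over all kept genes 1.62% were higher and 7.11% lower. The classes were not compared at equal signal level, with which the RIP difference moved. Neighbouring genes were called together for 17.5% of the 57 lower genes that went with the input and 16.4% of the 604 beyond it, beside 13.5% of all kept genes. At the threshold itself, Coa6 and Gng3 had RIP differences of 1.00 and counted as higher, and Izumo2 at 0.99 did not. On the other side Hipk3 and Clic1 were just past 2-fold and counted as lower, and Depdc7 was just short of it and did not.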

How the data were processed

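RNA of 5 samples, 1 array each, was grouped by the sample titles. The authors deposited a table of 1 log2 value per probe set and array; the scale was read from the values, while how background was corrected, probes summarised and arrays normalized is not given in the sources used here. Per the labels, RNA was labelled by standard Affymetrix procedures. Arrays have no read depth, and their number limits the precision.

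Of 34760 probe sets, 21640 had 1 symbol in the platform annotation, 1321 several, and 11799 were not named there. Symbols of 21553 were updated through RefSeq (GRCm38.p6), and 87 kept the file's name. Differences of log2 values were computed with Python 3.11.15, numpy 2.4.6 and pandas 2.3.3 and counted at 2-fold, a log2 difference of 1. With 1 array per group no test was run. The class rule was run on simulated arrays with planted differences well past 2-fold and noise below the spread of these data. That run checks the code and not the classes found here.

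Named genes were the 15 highest and 15 lowest beyond the input, the 12 highest and 12 lowest with it, the 5 at either end of the input differences absent between the RIPs, up to 5 members of each of 48 lists, the makorins and genes at the threshold; small nucleolar RNAs, histone and microRNA members and the other genes named beside their hosts or lists were added after their values were seen. Genes picked and not named are not reported here. The comparison, the lists and the rules were chosen with earlier results of these data known. Alternatives covered scaling, level filter, probe set choice, thresholds and the IgG RIP.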

Additional observations from a re-analysis of the deposited data

Results flagged for a closer look

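In 7 genes the RIP difference and the input difference were each at least 2-fold and had opposite signs, on 1 array per group; the difference between the 2 comparisons was not tested. Snord16a had a RIP difference of -2.04 against an input difference of 2.28, with levels of 5.15 and 7.43 in the Ctrl-labelled and MKRN1-labelled inputs, 6.89 and 4.84 in the anti-FLAG RIPs and 6.38 in the IgG RIP. Snord73b had -1.45 against 1.36, the noncoding RNA B230354K17Rik -1.28 against 1.40 and DQ267102 -1.06 against 1.73. In the other direction, Snora69 had 1.20 against -1.88. Ndufa4l2, a paralogue of a respiratory chain subunit, had 1.21 against -2.09, with 9.03 and 6.94 in the inputs, 8.35 and 9.55 in the anti-FLAG RIPs and 8.35 in the IgG RIP. Vpreb1, which pairs with heavy chains in pre-B cells, had 2.34 against -1.01, with 8.96 and 7.95 in the inputs, 8.37 and 10.71 in the anti-FLAG RIPs and 8.59 in the IgG RIP. Of these 7 genes 4 are small nucleolar RNAs, Snord16a, Snord73b and Snora69 by symbol and DQ267102 by its RefSeq class. Among all 11502 genes kept, 39 were on the list of small nucleolar and Cajal body RNAs and 38 had that RefSeq class. The 7 genes were picked by their values, and the count was not tested.

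Probe sets that the platform annotation does not name were left out of the comparison. At or above the level filter there were 4197 of them, and 459 (10.9%) were at least 2-fold higher and 533 (12.7%) at least 2-fold lower in the MKRN1-labelled anti-FLAG RIP, against 1.62% and 7.11% of the genes kept. Their median RIP difference was 0.15 and their median input difference 0.00.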

How the results depend on the processing

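Counts below run in the order higher in total, with the input and beyond it, then lower in the same order; an omitted count stayed within 1.5 times of that on the deposited values. Arrays centred on the median over all probe sets gave 108 higher genes in total and 71 beyond the input, and 1334 lower in total, 87 with and 999 beyond it. Centred on the genes kept, a setting chosen after seeing the data, they gave 306 and 214 higher and 529, 37 and 395 lower. With the trend along signal level removed 280 genes were higher, and 460 lower with 330 beyond the input. Of the 604 lower genes beyond the input, 326 remained so. A level filter at the 75th percentile, which tests fewer genes, gave 87, 17 and 56 higher and 36 lower with the input, and 28 and 25 input differences absent between the RIPs. At 1.5-fold the counts were 778, 88 and 602 higher, 2142, 220 and 1693 lower, and 315 and 267 absent. At 4-fold they were 26, 9 and 12, then 40, 2 and 28, and 4 and 6 absent. An input share of 0.25 gave 58 higher and 165 lower genes with the input, and 0.75 gave 12 and 23. With the IgG RIP in place of the MKRN1-labelled one the counts were 32, 18 and 9 higher and 20, 14 and 3 lower, with r at 0.404 and rho at 0.313. Under the other settings r ran from 0.127 to 0.168. With the median over probe sets, Nynrin had an input difference of 0.21 and Qk a RIP difference of 0.58, both of opposite sign. Apart from the settings whose construction changes what is counted, the cause of these shifts was not tested. No paired analysis was possible because each group is 1 array, and no array can be left out.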
